A study of Mus musculus with 6 samples.

Results

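The ventricular wall of the embryonic mouse heart has an outer compact layer and inner trabeculae, and the 10 genes described here are regulators of these layers: Hey2, Mycn and Prdm16 of the compact layer, Bmp10 and Cited1 of the trabeculae, Nrg1, Erbb2 and Erbb4 of the signal between endocardium and myocardium, and Hey1 and Fkbp1a. They were chosen by symbol, as every probe set annotated to exactly 1 symbol that is on the list. All 10 genes were found among 18193 with such a probe set, on 19 probe sets, and for a gene with several, the one brightest on average over the 6 arrays (mean log2 intensity) stands for it. Whole hearts were taken at embryonic day 16.5 from 3 FOG-2R3K5A and 3 wild-type (WT) siblings (strain background: mixed C57/B6, 129 S6), and 3 µg of total RNA per sample was labelled for a 1-colour Affymetrix array. Zfpm2 encodes FOG-2, which acts with GATA factors on their target genes. The R3K5A form carries substitutions that abolish its contact with NuRD, a chromatin remodelling complex. The labels call the crosses double heterozygous and give neither the zygosity of the mutants nor the number of hearts in a sample. All p-values here rest on the spread between these 6 samples, called biological replicates in the labels.

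In the mouse, endocardial Notch signalling and neuregulin drive the early trabeculae, while a set of transcription factors keeps the outer cardiomyocytes dividing so that the compact wall thickens. Failure of the compact layer leaves a thin, spongy wall, known as noncompaction. By late gestation the trabeculae have largely been taken up into the wall, and Bmp10 transcript is known mainly from the atria. A whole heart mixes both layers with atria, endocardium, epicardium and valves, so fewer cells of a type and less RNA per cell cannot be told apart.

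The bases around the transcription start are shown for the compact regulators and for both trabecular regulators, since these 5 genes make up the contrast between the layers. RefSeq windows in build GRCm38.p6 matched 8 of the 10 genes. Each sequence below runs 5′ to 3′ on the gene's strand over 280 bases, 250 before the start and 30 from it on, and Cited1 is shown for the first of its 3 entries.
Hey2 (chr10:30842754-30843033, minus strand): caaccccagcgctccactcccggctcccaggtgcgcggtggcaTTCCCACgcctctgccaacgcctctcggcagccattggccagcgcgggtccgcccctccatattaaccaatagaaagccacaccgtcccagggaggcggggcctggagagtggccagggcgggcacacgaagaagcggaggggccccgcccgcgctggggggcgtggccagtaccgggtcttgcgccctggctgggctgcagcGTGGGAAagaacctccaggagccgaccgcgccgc
Mycn (chr12:12941807-12942086, minus strand): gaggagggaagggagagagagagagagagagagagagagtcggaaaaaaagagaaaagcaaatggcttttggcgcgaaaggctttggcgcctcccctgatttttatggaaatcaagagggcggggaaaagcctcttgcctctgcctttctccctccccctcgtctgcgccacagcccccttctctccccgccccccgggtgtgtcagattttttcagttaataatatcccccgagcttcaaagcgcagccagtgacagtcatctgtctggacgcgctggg
Prdm16 (chr4:154636844-154637123, minus strand): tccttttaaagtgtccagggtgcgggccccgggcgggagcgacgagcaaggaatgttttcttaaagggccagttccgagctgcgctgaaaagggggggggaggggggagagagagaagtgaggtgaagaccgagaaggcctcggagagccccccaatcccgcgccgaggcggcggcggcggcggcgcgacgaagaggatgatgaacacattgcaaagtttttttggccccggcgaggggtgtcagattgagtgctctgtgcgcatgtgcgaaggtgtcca
Cited1 (chrX:102252152-102252431, minus strand): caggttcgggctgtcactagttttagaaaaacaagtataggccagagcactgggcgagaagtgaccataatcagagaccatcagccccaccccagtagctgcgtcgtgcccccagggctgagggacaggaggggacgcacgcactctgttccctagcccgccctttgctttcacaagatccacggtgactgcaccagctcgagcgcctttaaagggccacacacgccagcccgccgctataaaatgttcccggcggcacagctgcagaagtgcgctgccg
Bmp10 (chr6:87428744-87429023, plus strand): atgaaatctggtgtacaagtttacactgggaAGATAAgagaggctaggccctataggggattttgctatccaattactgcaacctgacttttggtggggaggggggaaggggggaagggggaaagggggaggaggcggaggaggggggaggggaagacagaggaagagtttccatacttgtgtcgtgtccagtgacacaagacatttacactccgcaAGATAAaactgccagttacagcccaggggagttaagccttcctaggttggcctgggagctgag
Capitals mark matches to 3 motifs, each searched on both strands: the GATA motif as AGATAA or TGATAA, the motif of the Notch effector RBPJ as GTGGGAA, and the E-box CACGTG that HEY and MYC family proteins can bind. No 2 matches overlapped. Hey2 held 2 RBPJ matches, on the antisense strand at bases -207 to -201 from the start and on the sense strand at -4 to 3. Bmp10 held 2 GATA matches, at -219 to -214 and at -33 to -28. The windows of Mycn, Prdm16 and all 3 Cited1 entries held 0 matches to any of the motifs, as did those of Erbb2, Erbb4 and Fkbp1a. Among 32851 windows of the same length, 17.9% held a GATA match and 3.05% at least 2, 5.94% held an RBPJ match and 0.234% at least 2, and 6.79% held the E-box. These are descriptions of letters in a window.

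Of the 10 regulators, 8 lay above the filter on dim genes (a mean log2 intensity over 6.30, the median probe set) and 2, Nrg1 and Erbb4, lay below it and were not tested. In limma's fit of all 11113 genes above the filter, 0 of the 8 passed at an adjusted p under 0.05, where 1.76% of all genes tested did (196, with 155 higher and 41 lower in mutants). At an unadjusted p under 0.05 there were 5 of the 8, all lower in mutant hearts, namely Prdm16, Cited1, Mycn, Hey2 and Erbb2, where 14.7% of all genes tested lay under that level and 6.33% did so with a lower mutant mean. The genotypes did not overlap for 6 of the 8, where 21.2% of all genes tested did not. Of these 6, the same 5 genes had every mutant value below every WT value, where 9.76% of all genes tested had that order, and Fkbp1a had the reverse order, where 11.5% did. The genes were listed with earlier results of these data known, so these counts describe them and give no independent support. The median difference over the 8 was -0.29 on the log2 scale (mutant minus WT, as throughout), beside -0.011 over all genes tested. That separation depended on the scaling: with each array centred on its median, 2 of the 8, Hey2 and Prdm16, kept mutant values below all WT values, where 6.14% of all genes did, and under quantile normalization it was 5, where 8.42% did.

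**Figure D1:**
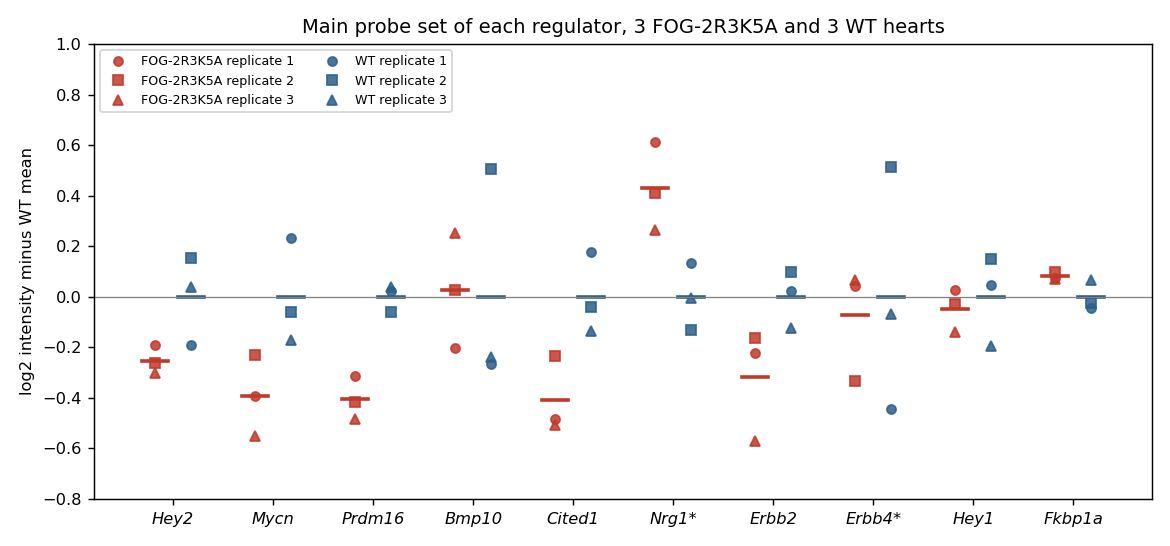
Log2 intensity of each gene's main probe set minus its WT mean, for 3 FOG-2R3K5A arrays (red, left) and 3 WT arrays (blue, right), with bars at group means and asterisks on the genes below the filter. Mutant points lie below all WT points for Hey2, Mycn, Prdm16, Cited1 and Erbb2, and above them for Nrg1 and, narrowly, Fkbp1a, while Bmp10, Erbb4 and Hey1 overlap.

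The 6 arrays had median intensities of 77.4 to 84.1. Correlations over the tested genes were 0.990 to 0.995 within mutants, 0.982 to 0.986 within WT and 0.972 to 0.990 between genotypes, and WT replicate 1 correlated with mutant replicate 2 (0.990) more than with WT replicates 2 and 3 (0.982 and 0.986). Zfpm2 transcript was 10.55 ± 0.034 in mutants and 10.11 ± 0.040 in WT (SD, n = 3 each), a difference of 0.44 (SE 0.064, limma adjusted p = 0.0134), a call lost without mutant replicate 1, mutant replicate 2 or WT replicate 3 (adjusted p up to 0.115). An allele that changes amino acids need not change the transcript, so that value does not check the labels. The defining genes of the labelled tissue were bright in both genotypes, with 6 of 6 general cardiomyocyte markers tested, 0 called, and sums of linear intensity of 47938 to 49314 in mutants and 45584 to 49350 in WT. Lung markers, which a whole heart should lack, summed to 168 to 3444 in mutants and 166 to 273 in WT, with 0 called. The lung secretory gene Scgb3a2 read 9.03 and 11.36 on mutant replicates 1 and 3 and at most 5.40 on the other arrays. Sftpc, also on the lung list, read 9.43 on mutant replicate 3 and at most 6.53 on the other arrays. Sftpb read 6.04 to 6.88 in mutants and 6.12 to 7.03 in WT. Nkx2-1, a defining lung factor, read at most 2.97 on any array. Their part in the results was not tested.

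Prdm16, a zinc finger transcription factor of the compact layer whose loss in mice leads to noncompaction, came nearest to the threshold. Its log2 intensity was 8.61, 8.51 and 8.44 in mutant replicates 1, 2 and 3, against 8.95, 8.87 and 8.97 in WT. The 3 mutant values lay together below the 3 WT values, with a gap of 0.25 between the genotypes that was wider than either group's range. Means were 8.52 ± 0.084 in mutants and 8.93 ± 0.054 in WT (SD, n = 3 each). The difference was -0.40 (SE 0.088, 95% interval -0.60 to -0.21), a mutant level 0.755 times that of WT, with a limma adjusted p of 0.0616 and rank 231 by p among the 11113 genes. Its 3 other probe sets also gave negative differences, though smaller ones. These were -0.30 and -0.12 for a pair designed on 1 shared accession, where the genotypes overlapped (unadjusted p = 0.123 and 0.481 by limma). The fourth, below the filter, gave -0.34 with no overlap. With the mean of all 4 probe sets the difference was -0.29 and its adjusted p 0.200, and with limma's array weights it was -0.39 at an adjusted p of 0.0371.

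Mycn encodes the MYC family factor that keeps compact cardiomyocytes dividing in the mouse embryo. It read 9.43, 9.59 and 9.27 in mutant replicates 1 to 3, against 10.05, 9.76 and 9.65 in WT. WT replicate 1 was the highest of the 6 arrays, and the nearest mutant and WT values were 0.061 apart. Means were 9.43 ± 0.16 in mutants and 9.82 ± 0.21 in WT (SD, n = 3 each), a difference of -0.39 (SE 0.12, 95% interval -0.67 to -0.12, adjusted p = 0.173). Its other 2 probe sets, designed on 1 shared accession, disagreed in size. The brighter gave -0.17 with overlapping genotypes (unadjusted p = 0.227 by limma), and the dimmer, below the filter, gave -0.71. On the dimmer probe set the mutant values were 5.88, 5.93 and 5.80 and the WT values 6.42, 6.44 and 6.88, so all 3 mutant arrays read below all 3 WT arrays.

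Hey2, a basic helix-loop-helix repressor of the Notch target family, marks the ventricular compact layer in mice. Mutant replicates 1 to 3 read 11.35, 11.28 and 11.25, and WT replicates 11.35, 11.70 and 11.59. The genotypes were separated only by the margin between mutant replicate 1 and WT replicate 1, whose linear intensities were 2617.93 and 2618.46. Means were 11.29 ± 0.055 in mutants and 11.55 ± 0.18 in WT (SD, n = 3 each), a difference of -0.25 (SE 0.086, 95% interval -0.45 to -0.059, adjusted p = 0.210). WT replicate 1 decided the call: without it the difference was -0.35 and its adjusted p 0.0300, in a setting where 451 of the 11113 genes were called. Over the other 5 arrays left out in turn, the adjusted p of Hey2 ran from 0.366 to 0.441. Hey2 has 1 probe set here.

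**Figure D2:**
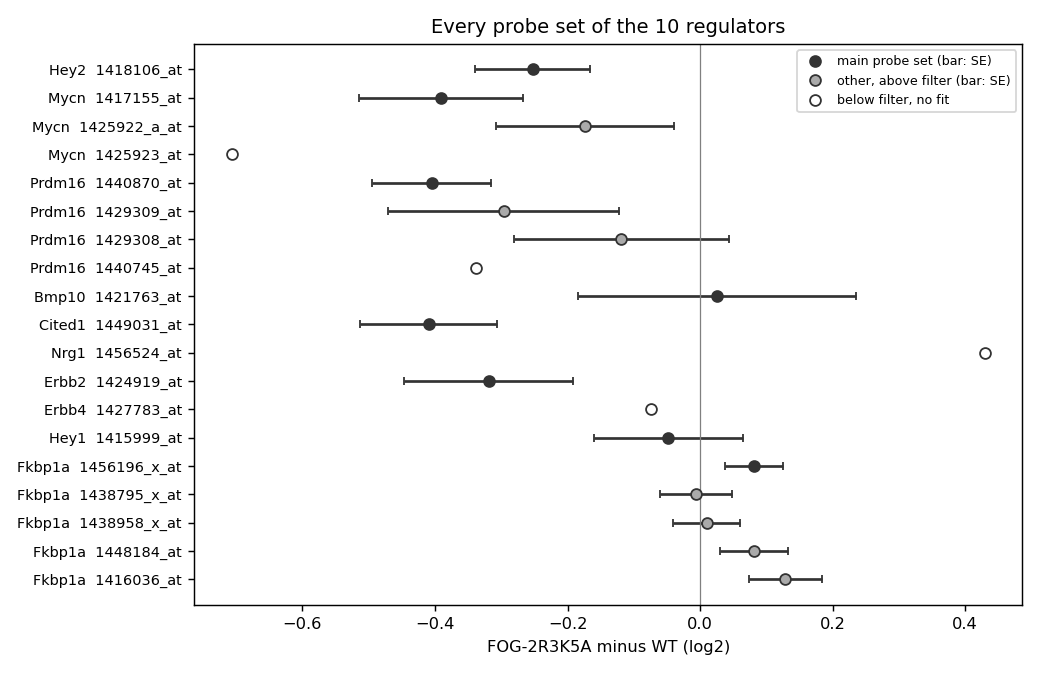
Difference between 3 FOG-2R3K5A and 3 WT arrays on the log2 scale for each of the 19 probe sets, with limma's SE where a probe set was above the filter and open circles where it was not fitted. All 3 Mycn and all 4 Prdm16 probe sets lie left of 0, by 0.12 to 0.71, while the 5 of Fkbp1a lie between -0.0068 and 0.13.

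Cited1, a transcriptional cofactor of the CBP and p300 acetyltransferases whose transcript marks trabecular cardiomyocytes in mouse embryos, read 10.36, 10.61 and 10.33 in mutant replicates 1 to 3, against 11.02, 10.80 and 10.71 in WT. As for Mycn, WT replicate 1 was the highest array, and all mutant values lay below all WT values. Means were 10.43 ± 0.15 in mutants and 10.84 ± 0.16 in WT (SD, n = 3 each), a difference of -0.41 (SE 0.10, 95% interval -0.64 to -0.18, adjusted p = 0.0949), the largest in size among the 8 regulators tested. Bmp10, the secreted ligand that sustains trabecular growth, read 7.87, 8.10 and 8.32 in mutants and 7.80, 8.58 and 7.83 in WT. WT replicate 2 was the highest of the 6 and the other two WT arrays the lowest. Means were 8.10 ± 0.23 in mutants and 8.07 ± 0.44 in WT (SD, n = 3 each), and the difference of 0.026 (SE 0.21, adjusted p = 0.965) had a 95% interval of -0.44 to 0.50. That interval takes in the Cited1 difference, so these arrays cannot place Bmp10 apart from it or from 0. Its sign also turned when mutant replicate 3, WT replicate 1 or WT replicate 3 was left out (-0.087, -0.11 and -0.093), and without WT replicate 2 it was 0.28 with every mutant value above the remaining WT values (adjusted p = 0.464).

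Because late Bmp10 transcript is known mainly from the atria, atrial markers were read on the same arrays. Of 7 atrial cardiomyocyte markers 0 were called, and 4 had positive and 3 negative differences (-0.25 to 0.24, median 0.0070). At an unadjusted p under 0.05 by limma there were 2, all higher, where 933 of all 11113 genes were under that level and higher. They were Myl7 (0.14), with all mutant values above WT, and Pam (0.24), with overlap. The summed linear intensity of the atrial markers was 30789 to 31528 in mutants and 28210.5 to 30585 in WT. Of 5 ventricular markers 1 was called, where 1.76% of all genes tested were. This was Mpped2, which rose by 0.62 (limma adjusted p = 0.0448), a call lost in 7 of 14 alternatives. Irx4, a ventricular transcription factor, had -0.13 (adjusted p = 0.451) with mutant values below WT values. The ventricular sums were 34483.5 to 35707 in mutants and 32208 to 34653 in WT. Whether the share of atrial or ventricular tissue bears on the regulators was not tested.

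The layers were set against each other by subtracting the mean log2 of Bmp10 and Cited1 from that of Hey2, Mycn and Prdm16 on each array. This value is a description of the 5 chosen genes and carries no test. It was 0.69, 0.44 and 0.33 in mutant replicates 1 to 3, against 0.71, 0.42 and 0.80 in WT, so the genotypes overlapped. Means were 0.48 ± 0.18 in mutants and 0.64 ± 0.20 in WT (SD, n = 3 each), a difference of -0.16 that is smaller than either SD. Taken separately, the compact mean was 9.75 ± 0.082 in mutants and 10.10 ± 0.027 in WT without overlap, a difference of -0.35. Hey2, Mycn and Prdm16 each had all mutant values below all WT values, so the separation of their mean follows from theirs and adds nothing to it. The trabecular mean was 9.26 ± 0.13 in mutants and 9.46 ± 0.21 in WT with overlap, a difference of -0.19. The contrast rested on which trabecular gene was used: it was -0.38 with Bmp10 alone and 0.060 with Cited1 alone.

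**Figure D3:**
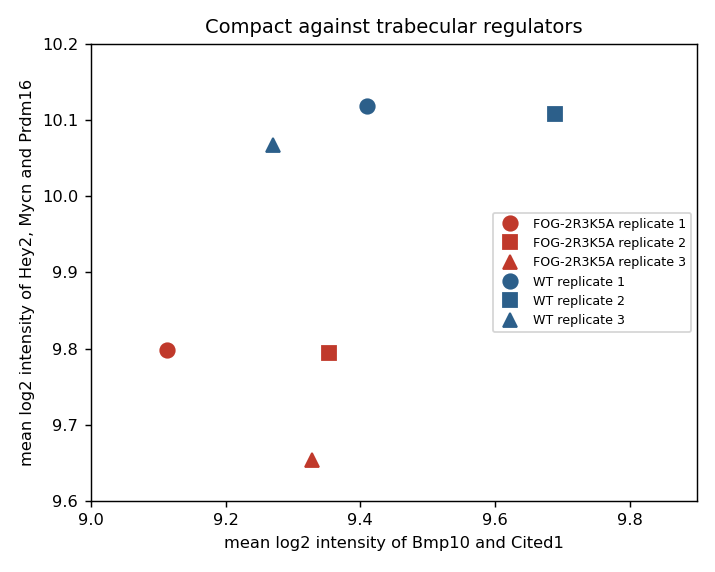
Mean log2 intensity of the compact regulators (vertical axis) against that of the trabecular regulators (horizontal axis), 1 point per array. The 3 FOG-2R3K5A arrays lie lower on the vertical axis, at 9.65 to 9.80, than the 3 WT arrays, at 10.07 to 10.12. Each compact regulator had that order alone, so it is no further separation. On the horizontal axis the genotypes overlap.

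Neuregulin-1 is released by the endocardium and binds ERBB4 on cardiomyocytes, which signals with ERBB2, a co-receptor that has no ligand of its own. Erbb2 read 8.30, 8.36 and 7.95 in mutant replicates 1 to 3, against 8.55, 8.62 and 8.40 in WT. Mutant replicate 3 was the lowest array, and the nearest values of the genotypes were 0.041 apart. Means were 8.20 ± 0.22 in mutants and 8.52 ± 0.11 in WT (SD, n = 3 each), a difference of -0.32 (SE 0.13, 95% interval -0.60 to -0.034, adjusted p = 0.283), and it was -0.19 without mutant replicate 3. Nrg1, read by 1 probe set, had linear intensities of 82.7, 71.9 and 65.0 in mutants and 59.4, 49.4 and 53.9 in WT. All 3 mutant values lay above all 3 WT values, but both genotype means, 6.19 ± 0.17 in mutants and 5.76 ± 0.13 in WT on the log2 scale (SD, n = 3 each), were below the filter level of 6.30. In a fit without the filter the difference of 0.43 (SE 0.16) had an adjusted p of 0.364. Erbb4 had linear intensities of 12.5, 9.65 and 12.7 in mutants and 8.93, 17.4 and 11.6 in WT, with overlap, and no fold is given at that level. Of 8 endothelial and endocardial markers, the cells that make Nrg1, 0 were called and 6 had positive differences, with a median of 0.14 and summed intensities of 11628 to 11871 in mutants and 10682 to 11686 in WT. Their part in the Nrg1 readings was not tested.

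Hey1, the close relative of Hey2 that is found in the atria and endocardium of the mouse, read 8.54, 8.49 and 8.38 in mutants and 8.56, 8.66 and 8.32 in WT. The genotypes overlapped, with means of 8.47 ± 0.085 in mutants and 8.52 ± 0.18 in WT (SD, n = 3 each). The difference was -0.048 (SE 0.11, adjusted p = 0.873), and its 95% interval of -0.30 to 0.20 takes in the Hey2 difference. Fkbp1a encodes the immunophilin FKBP12, a partner of ryanodine receptors, and its loss in mice gives overgrown trabeculae with raised Bmp10. It read 12.76, 12.78 and 12.75 in mutants, against 12.64, 12.66 and 12.75 in WT, and only 0.00368 separated the nearest arrays. That gap closed under quantile normalization and was 0.099 with arrays centred on their medians. Means were 12.76 ± 0.014 in mutants and 12.68 ± 0.060 in WT (SD, n = 3 each), a difference of 0.081 (SE 0.043, 95% interval -0.016 to 0.18, adjusted p = 0.421). Its 4 other probe sets gave -0.0068, 0.0097, 0.081 and 0.13. Of its probe sets 3, the one used here among them, carry the x suffix by which Affymetrix marks probes that may bind other transcripts, and the 2 without it gave 0.081 and 0.13.

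**Figure D4:**
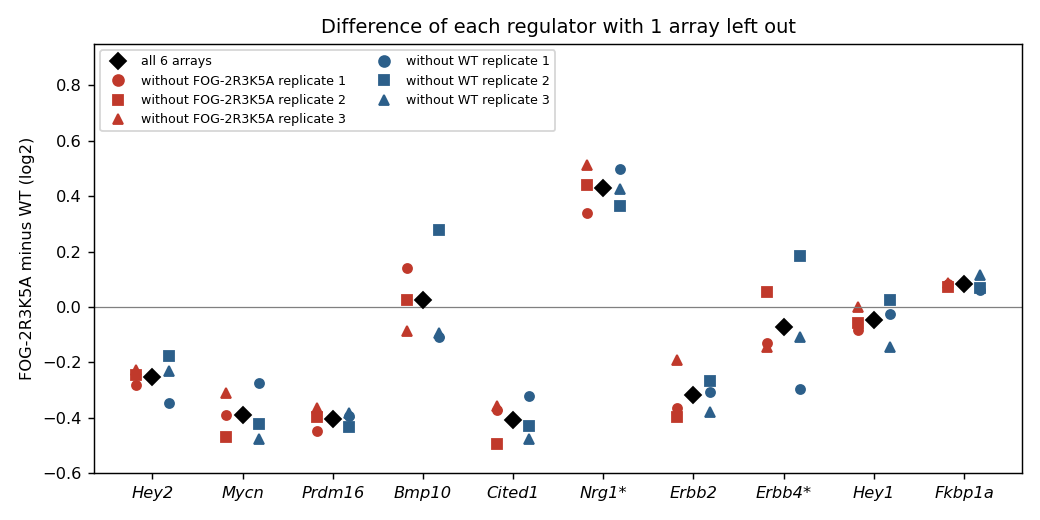
Difference of each gene on the log2 scale over all 6 arrays (black diamonds) and with 1 FOG-2R3K5A array (red) or 1 WT array (blue) left out, with asterisks on the genes below the filter. Hey2, Mycn, Prdm16, Cited1 and Erbb2 stay below 0 in every case, between -0.50 and -0.18, while Bmp10, Erbb4 and Hey1 cross it.

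WT replicate 1 stood out differently for different regulators. Its Hey2 value was the lowest in WT and next to the mutants, whereas its Mycn and Cited1 values were the highest of all 6 arrays. Without it the Mycn difference was -0.28 and the Cited1 difference -0.32, while that of Prdm16 was -0.39. Across the 6 arrays left out in turn, Prdm16 ran from -0.45 to -0.37, Cited1 from -0.50 to -0.32, Mycn from -0.48 to -0.28 and Hey2 from -0.35 to -0.18. Of these 4 genes only Hey2 was called in any of the 6, and only without WT replicate 1.

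Partner genes were read from 5 lists. Among 18 genes of compact wall growth, including partners of Mycn, Prdm16 and Hey2, 17 had negative differences, where 5867 of all 11113 genes did. At an unadjusted p under 0.05 by limma there were 3, all lower, where 6.33% of all genes tested were under that level and lower. Of the 18, 2 fell, where 0.369% of all genes tested were called lower. The median was -0.16, and -0.12 with arrays centred on their medians, where that of all genes was 0.031. Without WT replicate 2 the negative differences were 13 of 18. Fgf9, a growth factor from endocardium and epicardium that makes compact cardiomyocytes divide in mice, was 7.50, 7.47 and 7.19 in mutants and 7.93, 7.98 and 8.01 in WT. It fell by 0.59 (SE 0.12, adjusted p = 0.0440), with -0.54 on its second probe set. Tbx20, a T-box factor of cardiomyocytes and endocardium, was 11.44, 11.56 and 11.66 in mutants and 11.82, 12.05 and 11.93 in WT. It fell by 0.38 (SE 0.076, adjusted p = 0.0461), with -0.38 and -0.29 on its other 2 probe sets. Both calls were near the threshold and each was lost in 9 of 14 alternatives (adjusted p = 0.0282 to 0.151 for Fgf9 and 0.0135 to 0.204 for Tbx20), among them leaving out any array other than WT replicate 1, and with arrays centred on their medians 0 genes of the list were called. Gata6, a GATA factor of the myocardium, had -0.50 (SE 0.15, adjusted p = 0.173), and its 3 probe sets ran from -0.61 to -0.32. Gata4, the GATA partner of FOG-2, had -0.31 (limma adjusted p = 0.520). Its genotypes overlapped, with 9.63, 9.65 and 9.30 in mutant replicates 1 to 3 and 9.67, 10.37 and 9.47 in WT. The cell cycle genes Ccnd1 and Ccnd2, known to depend on Mycn in the mouse heart, had -0.023 and -0.12, and Max, the dimer partner of MYC proteins, -0.23. Tbx5, a partner of Prdm16, had -0.16.

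Among 18 trabecular, conduction and noncompaction genes, 12 had positive differences, where 5246 of all 11113 genes did, with a median of 0.12. At an unadjusted p under 0.05 by limma there were 4, all higher, where 933 of all 11113 genes were under that level and higher. They were Vcan, Nppb, Nppa and Sema3a, and of these Sema3a had overlapping genotypes. It read 7.96, 8.01 and 8.05 in mutant replicates 1 to 3 and 7.99, 7.01 and 7.44 in WT (difference 0.52, limma adjusted p = 0.290). Of the 18, 1 was called higher, where 1.39% of all genes tested were. This was Vcan, the proteoglycan of the matrix between endocardium and myocardium, at 11.42, 11.49 and 11.34 in mutants and 11.14, 10.79 and 10.81 in WT. Vcan rose by 0.50 (SE 0.096, adjusted p = 0.0385), and its other 2 probe sets above the filter gave 0.83 and 0.89. That call was lost in 8 of 14 alternatives (adjusted p = 0.00567 to 0.196), among them leaving out any array other than WT replicate 1. Without WT replicate 1, 3 of the 18 genes were called higher, in a setting where 277 of all 11113 genes were. Nppb, a natriuretic peptide of trabecular and stressed cardiomyocytes, had 0.48 (adjusted p = 0.145), with mutant values of 12.61 to 12.69 above WT values of 11.78 to 12.42. Nppa, also trabecular and atrial, had 0.10 (adjusted p = 0.174) and Adamts1, a protease that degrades the trabecular matrix, 0.16 (adjusted p = 0.367). The conduction genes Irx3 and Gja5 had 0.13 and -0.0025. Of the partners of Fkbp1a, Ryr2 had -0.021 and Fkbp1b, its closest relative, 0.18. Cited2 and Cited4, relatives of Cited1, had 0.049 and -0.21. None of the 9 genes from Nppb to Cited4 passed.

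Of 18 Notch pathway genes 0 were called by limma. At an unadjusted p under 0.05 there were 3, all negative, where 14.7% of all genes tested lay under that level, 6.33% with a lower mutant mean. Differences were negative for 13, where they were for 5867 of all 11113 genes. The median was -0.086, or -0.044 with arrays centred on their medians. The receptors Notch1, Notch2, Notch3 and Notch4 had 0.21, -0.34, -0.36 and -0.059. The smallest p values belonged to Notch2 (adjusted p = 0.210) and the ligand gene Jag2 (-0.34, adjusted p = 0.245). Hes1 and Heyl, Notch targets related to Hey1 and Hey2, had -0.20 and 0.15, and Rbpj, the DNA-binding effector whose motif was searched above, had -0.033. Without WT replicate 1, 1 of these 18 was called higher, in a setting where 277 of all 11113 genes were. Of 12 neuregulin and ErbB partners tested, 0 were called and 0 lay at an unadjusted p under 0.05, with a median of -0.025 that turned to 0.017 with arrays centred on their medians. Erbb3, the neuregulin receptor of the cushions, had 0.25 (adjusted p = 0.411) and Bace1, a protease that cuts neuregulin, 0.19 (adjusted p = 0.457), the smallest p values of that list. Nrg3, Nrg4, Btc and Ereg were below the filter.

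Of 20 BMP10 receptors and downstream genes 0 were called by limma. At an unadjusted p under 0.05 there were 5, 3 negative and 2 positive, where 14.7% of all genes tested lay under that level. Differences were positive for 12, where they were for 5246 of all 11113 genes, and the median was 0.050. Tcap, a Z-disc protein that binds BMP10, had -0.27 (adjusted p = 0.170), with mutant values below WT values. Smad5, an effector of BMP receptors, had -0.23 (adjusted p = 0.186). The receptor genes Bmpr1a and Bmpr2 had 0.051 and 0.049. Cdkn1c, the cell cycle inhibitor p57 that BMP10 is known to hold down in mice, had 0.19 (adjusted p = 0.527), and the target genes Id1, Id2 and Id3 had 0.026, 0.17 and 0.21. Genotypes overlapped for Cdkn1c, Id1 and Id2, as for Bmp10 itself, while all mutant values of Id3 lay above the WT values.

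**Figure D5:**
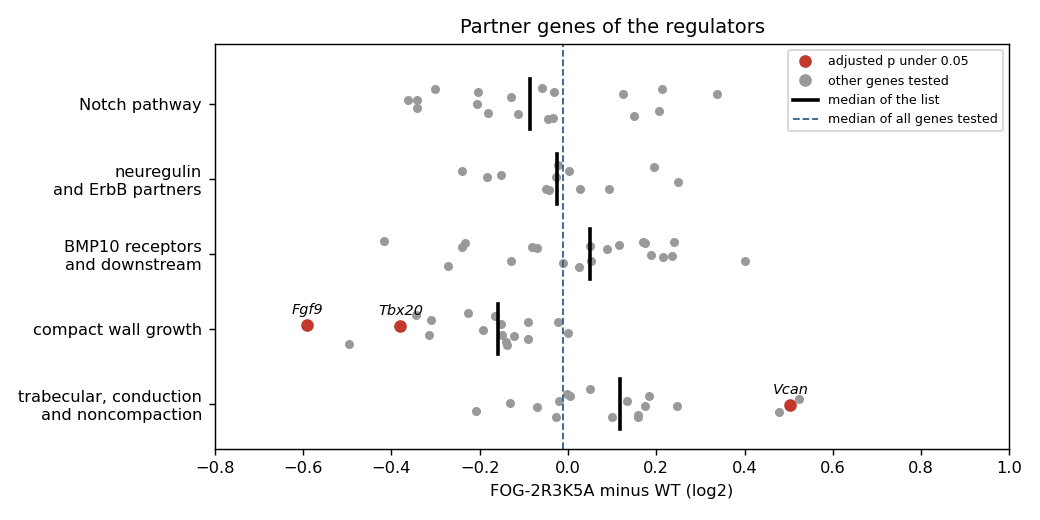
Difference between FOG-2R3K5A and WT on the log2 scale for every tested gene of the 5 partner lists (points), with list medians (black bars), the median of all genes tested (dashed line) and called genes in red. Fgf9 and Tbx20 lie at -0.59 and -0.38 in the compact wall list and Vcan at 0.50 in the trabecular list.

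Some epicardial markers moved with genotype on the same arrays as Fgf9, a transcript known in part from that layer. Of 7 markers 3 rose, where 1.39% of all genes tested were called higher. These were Upk3b by 0.50, Msln by 0.98 and Krt19 by 0.93 (limma adjusted p = 0.0212, 0.0286 and 0.00188), beside differences of -0.057, -0.11, -0.085 and -0.22 for Wt1, Tbx18, Tcf21 and Aldh1a2. Krt19 was called in 14 of 14 alternatives, Upk3b in 10 and Msln in 9, with calls lost only among the fits without the filter, without the intensity trend or with 1 array left out. The summed intensities of the list were 6377 to 6810 in mutants and 5679 to 6069 in WT. Fgf9 had the opposite sign to the 3 markers that rose and the same sign as the other 4. The part of this layer in the fall of Fgf9 was not tested.

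Markers of other cell types were read beside the compact wall genes. Of 4 skeletal muscle markers 2 were tested and 1 fell, where 0.369% of all genes tested were called lower. This was Tnni2, a fast skeletal troponin read by a probe set with the x suffix. Its mutant values were 6.94, 7.08 and 6.68 and its WT values 8.27, 7.82 and 7.71, a difference of -1.04 (SE 0.17, adjusted p = 0.0217). The call was lost in 4 of 13 alternatives, namely without the filter, mutant replicate 1, mutant replicate 3 or WT replicate 2 (adjusted p up to 0.102). Acta1, the other marker tested, had 0.12 (limma adjusted p = 0.493) and read at least 11.05 on every array. The summed intensity of the skeletal list, 2375 to 2765 in mutants and 2419 to 2681 in WT, is mostly that of Acta1 and says little about Tnni2. The defining factor Myog read at most 4.61 on any array. Of 5 fibroblast and valve markers 0 were called, with a median difference of 0.011. All mutant values of Dcn and Lum, matrix proteoglycan genes, lay above WT (0.24 and 0.31, limma adjusted p = 0.0690 and 0.143). Genotypes overlapped for Col1a1, Col3a1 and Postn (-0.025, -0.025 and 0.011). The sums of these markers were 24534 to 26527 in mutants and 23234 to 25346 in WT. Of 3 smooth muscle markers tested 0 were called, with mutant values of Cnn1, a smooth muscle calponin, above WT (0.42, adjusted p = 0.160) and sums of 11801.5 to 12379 in mutants and 10784 to 11984 in WT. The 1 erythroid marker tested, Alas2, had 0.27 (adjusted p = 0.386). The part of these cell types in the regulators and in the compact wall genes was not tested.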

How the data were processed

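Probe set intensity values in the authors' deposited table are linear and already scaled between arrays, as the values show (array medians within 0.12 log2 units). How the authors normalized them was not stated in the sources used here, no detection call was used, and the number of arrays limits the precision. Intensities were floored at 1 and log2-transformed. Of 45101 probe sets, 64 were controls and 34945 had 1 gene symbol in the platform annotation, which needed 0 updates against GRCm38.p6. Genes with a mean above the median level of the probe sets other than controls (6.30, an intensity of 78.9) were tested, 11113 in all. The comparison of genotypes used limma 3.58.1 (R 4.3.3) (intensity trend, two-sided, Benjamini-Hochberg over all genes tested), and the fit was tested on simulated data. The 10 regulators, the partner and marker lists, the motifs and the alternatives were chosen with earlier results of these data known. All regulators are named, and of each partner list every called gene or, with none called, the 2 with the smallest p. Other list genes were named as partners of a regulator, or after their values were seen (Gata6, Nppb, Nppa, Sema3a, Adamts1, Irx3, Gja5 and the marker genes). Some listed genes are not reported here. Alternatives covered the scaling, an offset of 16, the filter, the mean of a gene's probe sets, the variance model, array weights, the replicate number as a block and each array left out. List counts under them were added after seeing the data.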

Additional observations from a re-analysis of the deposited data

How the results depend on the processing

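The number of genes called was 196, and it was 81 without the filter, 125 with the mean of a gene's probe sets, 119 without the intensity trend, 429 with array weights and 37 to 451 with 1 array left out. The number of regulators called was 0, and it was 1 with array weights (Prdm16) and 0 to 1 with 1 array left out (1, Hey2, without WT replicate 1). Single regulators had 114 values under the alternatives. Nrg1 and Erbb4, untested in the main fit, entered only through the fit without the filter, where they kept their sign and are counted as kept. Of the 114, 107 kept their sign and side of the threshold, 2 were called (those above) and 5 turned in sign. These 5 were Bmp10 without mutant replicate 3 (-0.087), WT replicate 1 (-0.11) or WT replicate 3 (-0.093), and Hey1 with array weights (0.034) or without WT replicate 2 (0.026). With 1 array left out Bmp10 ran from -0.11 to 0.28 and Hey1 from -0.15 to 0.026. Erbb4, whose values with 1 array left out are not among the 114, turned to 0.056 without mutant replicate 2 and to 0.18 without WT replicate 2. None of the 5 was called, and the cause was not tested. The compact minus trabecular difference was 0.060 without Bmp10 and -0.38 without Cited1, and -0.27 to -0.079 with 1 array left out. The labels do not say that replicate numbers pair the samples. Deviations of same-numbered samples correlated at -0.058, 0.13 and 0.41, and only replicate 3 correlated best with its own number. With 3 samples per genotype these values cannot settle whether samples were paired. With the replicate block 234 genes and 0 regulators were called.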
